A study of Mus musculus with 5 samples.

Results

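The 10 genes described here are Fos, Fosb, Jun, Junb, Jund, Atf3, Egr1, Ier2, Dusp1 and Btg2, chosen by name from 41028 gene names as a set of immediate early genes and followed through each cell class of mouse mammary tumours. The tumours came from PyMT mice, a model in which a viral oncogene is expressed in the mammary gland, and they were profiled as single cells on 2 platforms, 10x Chromium 3' v2 (droplets) and BD Rhapsody with its whole transcriptome assay (microwells). All tumours were enzymatically digested and enriched for viable cells, so every library carries the time and temperature of a digest. The fresh 10x group had 2 libraries (fresh 10x 1 and fresh 10x 2), and it was the only group with replicates. One library, stored 10x, was made from a digest kept overnight at 4 °C (24 h in its title) after viability had dropped by at least 20% by flow cytometry. BD 1 was a fresh BD Rhapsody library. BD 2 is called fresh in its title and 24 h in its file names, so it entered no main test of storage or platform. It is included where all 5 libraries enter, as in the level fits, and in 1 alternative that follows the titles. The labels give no mouse age, strain or number of animals and do not say whether the fresh pair came from separate tumours, so the p-values of storage and platform within a class measure only the spread between those 2 libraries, which may be technical. The tests of levels between classes and clusters use the spread over all 5 libraries, which may likewise not be a spread over tumours or mice.

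Immediate early genes are transcribed within minutes of a stimulus without new protein synthesis, because their promoters are held ready for factors such as CREB and the SRF-ELK complex that ERK and p38 kinases phosphorylate. Fos, Fosb, Jun, Junb and Jund encode subunits of the AP-1 dimer. Atf3 encodes a related bZIP factor of the stress response, Egr1 a zinc finger factor downstream of ERK, and Ier2 a small nuclear protein. Dusp1 encodes a phosphatase that switches off p38 and JNK, and Btg2 an antiproliferative protein that recruits the CCR4-NOT deadenylase. Enzymatic digestion of tissue is known to induce many of these genes.

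For 8 of the 10 genes, all but Egr1 and Ier2, the 250 bases before the RefSeq start site on GRCm38.p6 were searched on both strands for letters known from CREB and AP-1 sites. The CREB/ATF core TGACG was in 6 of these 8 promoters against 17.8% of 32851 promoters of the same length. The full site TGACGTCA, which contains the core on both strands, was in 2 of 8 against 1.55%. The AP-1 site TGANTCA was in 0 of 8 against 6.75% and the CArG box bound by SRF in 0 of 8 against 1.47%, in this window. Cores began at -129 and -66 in Fos, -60 in Fosb, -106 in Junb, -7 in Atf3, -191, -143 and -140 in Dusp1 and -166 and -163 in Btg2, counted in bases before the start site. The promoters of Fos, Dusp1 and Btg2 are shown because they hold more than 1 core match counted over both strands, with forward-strand matches in capitals. They lie at chr12:85473640-85473889 on the plus strand (Fos), chr17:26508473-26508722 on the minus strand (Dusp1) and chr1:134079156-134079405 on the minus strand (Btg2), each written 5′ to 3′ towards the gene.
Fos: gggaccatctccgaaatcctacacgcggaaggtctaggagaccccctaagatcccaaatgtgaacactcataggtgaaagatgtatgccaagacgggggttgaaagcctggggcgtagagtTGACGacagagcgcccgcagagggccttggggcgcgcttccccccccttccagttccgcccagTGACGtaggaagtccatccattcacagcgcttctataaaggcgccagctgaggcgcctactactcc
Dusp1: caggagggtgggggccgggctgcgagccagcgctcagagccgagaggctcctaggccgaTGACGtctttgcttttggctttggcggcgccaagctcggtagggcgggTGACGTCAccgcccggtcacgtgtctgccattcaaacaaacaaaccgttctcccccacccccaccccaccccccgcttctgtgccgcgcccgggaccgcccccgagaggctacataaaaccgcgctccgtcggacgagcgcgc
Btg2: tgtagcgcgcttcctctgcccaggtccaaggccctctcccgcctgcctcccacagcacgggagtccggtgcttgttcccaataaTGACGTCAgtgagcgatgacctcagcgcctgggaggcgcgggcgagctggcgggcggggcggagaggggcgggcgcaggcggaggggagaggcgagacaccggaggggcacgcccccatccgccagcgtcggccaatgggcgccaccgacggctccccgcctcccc
The full TGACGTCA began at -143 in Dusp1 and at -166 in Btg2. The cores at -143 and -140 in Dusp1 are thus 1 site read on both strands, as are those at -166 and -163 in Btg2. A match of letters is a description and not evidence of binding.

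The libraries held at most 4186 cells each, with 29166129 to 59957945 UMIs in all and a median of 8926 to 12474 UMIs per cell. The median share of UMIs from mitochondrial genes was 6.14% to 7.17% on 10x, 15.2% in BD 1 and 19.8% in BD 2. Cells were clustered with the 10 genes and 111 other listed genes left out, so the classes do not rest on them. A cluster was named where at least 60% of its cells held 3 or more fixed markers of a class. That share had to be at least 1.2 times the share for the next class. Markers of another kind could not outnumber the class's own among the leading genes. In clusters that were not shallow, the leading genes did not have to include any of its own. The tested classes were epithelial-like cells (1264 to 2628 per library), and fibroblast-like, endothelial-like, macrophage-like, and T and NK-like cells, all present in every library. Mural-like and neutrophil-like cells fell under 10 cells in at least 1 library and were not tested. A group of 250 cells, cluster 18, had T cell genes but was led by immunoglobulin transcripts (0 to 0.417 per 10,000 UMIs in the fresh pair and 684 to 1630 in the other 3 libraries), and it was left unnamed. Barcodes shared between libraries numbered at most 24 (BD 1 and BD 2) and at most 5 among the 10x libraries.

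Levels below are UMIs of a gene per 10,000 UMIs of a class in a library, always in the order fresh 10x 1, fresh 10x 2, stored 10x, BD 1 and BD 2. Cells of a class are summed first, because cells of 1 library are not replicates.

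Among the 5 tested classes, the sum of the 10 genes was highest in epithelial-like cells of the 10x libraries and macrophage-like cells of the BD libraries. Their summed level in epithelial-like cells was 159, 166, 143, 147 and 133 per 10,000. In macrophage-like cells it was 102, 147, 132, 162 and 174, and in endothelial-like cells 120, 156, 113, 115 and 126. Fibroblast-like cells had 75.1, 46.7, 85.5, 111 and 102.5, and T and NK-like cells 58.5, 64.0, 70.7, 72.6 and 67.2. T and NK-like cells were the lowest of these 5 classes except in fresh 10x 2, where fibroblast-like cells were below them. The few neutrophil-like cells (2 to 12 per library) had 234, 342, 174, 188 and 133. Mural-like cells had 105, 51.9, 94.9, 184 and 137. Neither class was tested.

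**Figure D1:**
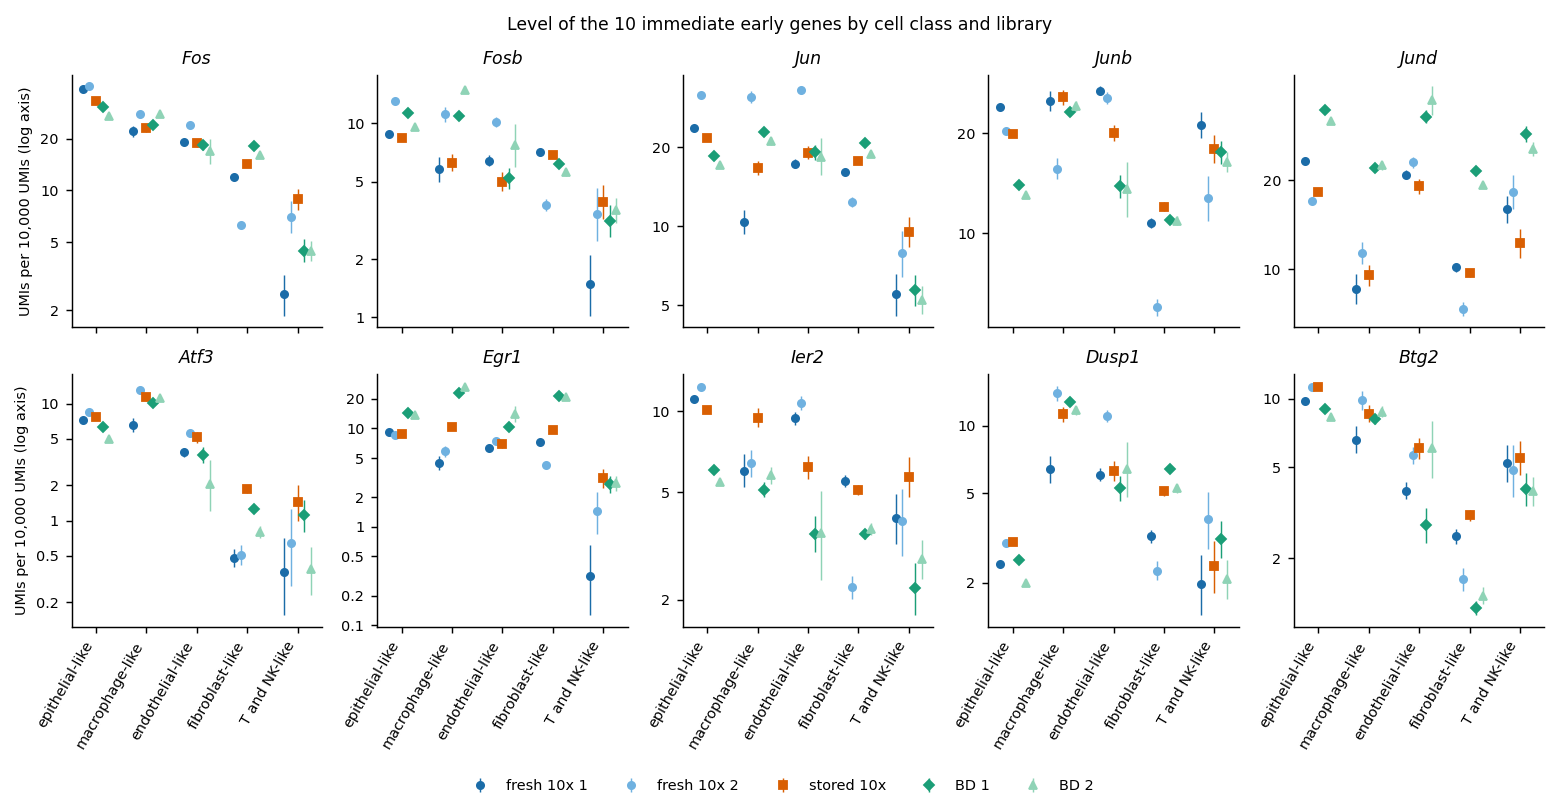
Level of each of the 10 genes in 5 cell classes. The y axis is UMIs per 10,000 UMIs on a log scale, each point is 1 library, and bars are exact 95% Poisson intervals that cover counting error only. Atf3 separates fibroblast-like and T and NK-like cells (0.360 to 1.85) from epithelial-like cells (4.97 to 8.50), whereas Jund separates the platforms.

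Fos separated the epithelial-like from the T and NK-like cells. In epithelial-like cells its level was 39.3, 40.4, 33.4, 30.7 and 27.2, and in T and NK-like cells 2.48, 7.02, 8.88, 4.47 and 4.45. The ranges do not overlap, and with library as a block the T and NK-like level was lower by 2.96 on the log2 scale (SE 0.27, adjusted p = 1.65e-10). Fibroblast-like cells had 11.98, 6.29, 14.3, 18.2 and 16.1 (log2 difference -1.36, SE 0.25, adjusted p = 2.20e-05) and endothelial-like cells 19.3, 24.1, 19.0, 18.5 and 16.9 (log2 difference -1.06, SE 0.25, adjusted p = 0.000644). In macrophage-like cells Fos stood at 22.2, 27.9, 23.2, 24.2 and 27.8, a difference of -0.38 that missed the threshold (adjusted p = 0.197). Fosb followed with 8.45 to 12.98 in epithelial-like cells against 1.49 to 3.95 in T and NK-like cells (log2 difference -1.97, adjusted p = 8.50e-08).

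Atf3 was high in some classes and nearly absent from others. Its level was 7.27, 8.50, 7.79, 6.32 and 4.97 in epithelial-like cells and 6.58, 13.2, 11.4, 10.2 and 11.2 in macrophage-like cells. It was 0.481, 0.509, 1.85, 1.27 and 0.798 in fibroblast-like cells and 0.360, 0.638, 1.44, 1.12 and 0.384 in T and NK-like cells, the latter from 8 to 41 UMIs per library. Endothelial-like cells lay between, at 2.06 to 5.65. No fibroblast-like or T and NK-like library reached the lowest epithelial-like or macrophage-like one. The log2 difference from epithelial-like cells was -2.91 in fibroblast-like cells (adjusted p = 5.22e-11) and -3.47 in T and NK-like cells (adjusted p = 1.44e-10). The macrophage-like level was higher by 0.67 (adjusted p = 0.0243), a call lost at a finer clustering (0.57, adjusted p = 0.0836).

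Dusp1, the phosphatase that ends p38 and JNK signalling, was low in epithelial-like cells, unlike Fos. It stood at 2.43, 2.99, 3.03, 2.52 and 2.00 in epithelial-like cells and at 6.40, 13.9, 11.2, 12.7 and 11.7 in macrophage-like cells. The lowest macrophage-like library was above the highest epithelial-like library, and the log2 difference was 2.16 (SE 0.23, adjusted p = 1.60e-09). Endothelial-like cells were also higher (6.06, 10.99, 6.31, 5.28 and 6.44, log2 difference 1.18, adjusted p = 5.21e-05). In fibroblast-like cells the difference was 0.78 (adjusted p = 0.00252), and within the fresh pair alone it was 0.22 and no longer called.

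Btg2 marked fibroblast-like cells by its low level: 2.50, 1.62, 3.08, 1.21 and 1.37 against 9.71, 11.3, 11.2, 9.003 and 8.26 in epithelial-like cells (log2 difference -2.40, SE 0.17, adjusted p = 2.08e-13). It was also lower in endothelial-like (-1.32, adjusted p = 1.46e-07) and T and NK-like cells (-1.33, adjusted p = 2.06e-07) and did not differ past the threshold in macrophage-like cells (-0.13, SE 0.17, adjusted p = 0.515). Egr1 was lower in T and NK-like cells alone among the tested classes (-2.82, adjusted p = 8.70e-09). In fibroblast-like cells its difference from epithelial-like cells was -0.04 (SE 0.27, adjusted p = 0.905), but that mean covers 7.26 and 4.24 on fresh 10x and 21.2 and 20.8 on BD Rhapsody.

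Junb was the member in which T and NK-like cells stood closest to epithelial-like cells among the AP-1 genes, with 21.2, 12.8, 17.97, 17.5 and 16.4 against 24.0, 20.3, 19.9, 13.9 and 13.02 (log2 difference -0.34, SE 0.20, adjusted p = 0.190). Junb was lower in fibroblast-like cells (10.7, 5.99, 12.03, 10.9 and 10.9, log2 difference -0.84, adjusted p = 0.000510). Jund was lower in fibroblast-like (-0.94), macrophage-like (-0.73) and T and NK-like cells (-0.59), the last not called in the fresh pair alone (-0.40). Jun was lower only in T and NK-like cells (-1.99, adjusted p = 2.52e-08) among the 4 comparisons, and Ier2 was lower in T and NK-like (-1.52), fibroblast-like (-1.11) and endothelial-like cells (-0.67).

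In all, 25 of 40 comparisons with epithelial-like cells passed the threshold, 4 higher and 21 lower. By class these were 8 of 10 genes in T and NK-like cells (43.4% of all 15611 tested genes passed), 6 in endothelial-like (50%), 8 in fibroblast-like (66.3%) and 3 in macrophage-like cells (54.3%). The share of the members is thus near the background in fibroblast-like and endothelial-like cells and under it in macrophage-like cells. The median log2 difference of the 10 genes was -1.74 in T and NK-like, -0.89 in fibroblast-like, -0.63 in endothelial-like and -0.05 in macrophage-like cells. Over all tested genes the medians were -0.48, -0.19, -0.33 and -0.34.

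Epithelial RNA in cells of other classes touches these levels, most of all in T and NK-like cells. The 8 epithelial markers summed to 2.70, 2.63, 10.7, 6.40 and 6.21 per 10,000 in T and NK-like cells, with 4 to 8 of 8 markers detected, against 70.5, 69.6, 63.9, 45.2 and 37.9 in epithelial-like cells. If Fos came along in the same ratio, epithelial RNA would give 1.505, 1.53, 5.60, 4.34 and 4.45 per 10,000 in T and NK-like cells. That is 60.8%, 21.8%, 63.0%, 97.3% and 100.03% of the observed level, and both BD libraries lie at the top of that range. For Atf3 the same share was 50.4% to 212%, for Egr1 22.9% to 113%, and for Dusp1 2.95% to 21.3%. In fibroblast-like cells it was 6.17% to 26.4% for Fos and 24.4% to 47.6% for Atf3, and in macrophage-like cells 5.04% to 9.20% and 2.45% to 5.13%. When cells of the other classes with at least 3 epithelial markers were left out, 27 of 40 level differences passed instead of 25. That count is not set against the share of all genes passing in the same fit.

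The same genes also ordered the epithelial clusters. The 9 epithelial-like clusters tested had at least 10 cells in every library, and 66 of 90 comparisons of a gene in a cluster with the mean of the other clusters passed the threshold. In cluster 0, led by Fcgbp and Cck, all 10 genes were higher (39.5% of 12915 genes passed there, 21% higher). In the cycling cluster 1, all 10 were lower (68.3% passed, 35.4% lower). In the interferon cluster 7, led by Ifit1 and Isg15, all 10 were higher, by 0.27 to 0.55 on the log2 scale (28.6% passed, 16.8% higher).

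Fos read 57.7, 60.1, 51.8, 47.4 and 42.5 in cluster 0 and 23.8, 26.9, 23.8, 22.5 and 18.6 in the cycling cluster. The lowest cluster 0 library was above the highest cycling library. The log2 difference from the other clusters was 0.74 (SE 0.06, adjusted p = 1.29e-13) in cluster 0 and -0.66 (SE 0.07, adjusted p = 1.00e-11) in the cycling cluster. Fosb gave the largest contrast of cluster 0 (1.198, SE 0.10), from 14.8, 22.2, 16.3, 24.5 and 21.0 against 4.37, 10.2, 3.94, 6.26 and 4.73 in the cycling cluster. Btg2, which restrains the G1 to S step, was also low in the cycling cluster (4.5996, 5.36, 6.90, 5.07 and 4.50, log2 difference -1.08, SE 0.10, adjusted p = 1.23e-12). The cycling cells were also the deepest, with a median of 25610 UMIs against 10873 in cluster 0, and the levels are shares of all UMIs.

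Other clusters split the set. Cluster 3, led by S100g, Npy and Aldh1a3, had the highest Dusp1 level of the 9 clusters (5.06, 5.91, 6.11, 4.66 and 4.88, log2 difference 1.10, adjusted p = 7.45e-16) together with high Fosb (0.99), while Btg2 was lower (-0.48), so 9 genes rose and 1 fell (43.8% of genes passed). Cluster 9, led by Smr2 and Wif1, had little Atf3 (2.265, 4.87, 2.59, 1.27 and 1.60, log2 difference -1.77, SE 0.13, adjusted p = 3.22e-15) and low Fosb (-1.16). In that cluster 8 genes were lower (34.6% passed), and Jun and Dusp1 were each at -0.15 and not called. Its cells had a median mitochondrial share of 17.3% against 11.2% in cluster 0.

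The secretory cluster 5, led by Scgb1b27 and Prh1, had lower Fosb (-0.94), Egr1 (-0.56), Dusp1 (-0.37) and Ier2 (-0.23) and higher Btg2 (0.56), with 39.5% of genes passing. In the milk protein cluster 10 (Csn2, Wap), Atf3 (0.35) and Jund (0.18) were higher, though not called without TMM (0.23 and 0.0588), and Btg2, Jun, Fos and Egr1 lower (-0.39 to -0.23, 32% passed). The basal cluster 13 (Krt5, Krt14) had higher Fosb (0.47), Egr1 (0.40), Btg2 (0.39) and Junb (0.24) and lower Jund (-0.20, 39% passed). Cluster 2 (Mt2, Saa2) differed in Dusp1 (-0.54) and Btg2 (0.35) alone (23.1% passed).

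**Figure D2:**
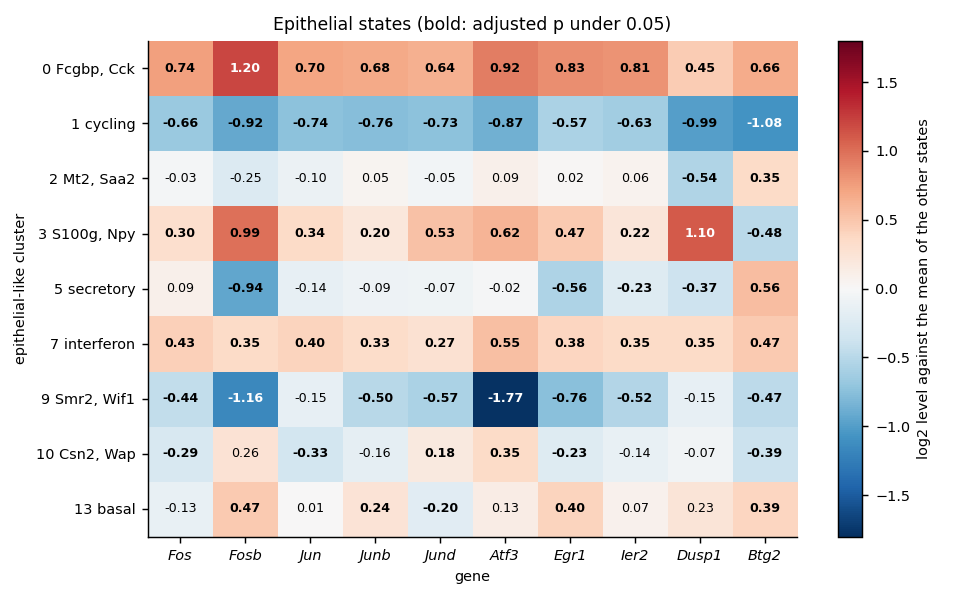
Level of the 10 genes (x axis) in 9 epithelial-like clusters (y axis) as log2 difference from the mean of the other clusters, from the fit with library as a block, with bold numbers for adjusted p under 0.05. Cluster 0 and the interferon cluster 7 are red across all 10 genes and the cycling cluster 1 is blue across all 10.

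Few of these genes were called between the stored library and the fresh pair. There was 1 stored library, so storage, tumour and handling cannot be told apart. A gene that was not called may still have changed. With 1 library after storage against 2 fresh ones, 6 of 50 gene and class pairs passed, all higher, and they lay in T and NK-like (3), fibroblast-like (2) and macrophage-like cells (1). In epithelial-like and endothelial-like cells and in whole libraries no member passed with edgeR. At an unadjusted p under 0.05 there were 0, 2 and 0 members respectively, and DESeq2 called fibroblast-like Atf3 alone. The background shares were 1.97% of genes in T and NK-like, 12.3% in fibroblast-like, 1.52% in macrophage-like, 2.84% in epithelial-like and 0.968% in endothelial-like cells and 0.204% in whole libraries.

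Fibroblast-like Atf3 was the largest of the calls outside the T and NK-like class. Its level of 1.85 after storage (717 UMIs) stood above 0.481 (126 UMIs) and 0.509 (98 UMIs) in the fresh pair, a log2 change of 1.89 (SE 0.16, adjusted p = 1.87e-06). It was higher in both fibroblast-like clusters, by 2.24 in cluster 8 (led by Efemp1 and Clec3b) and by 1.82 in cluster 11 (Cilp and Spon1). Epithelial RNA rose in the same class: the 8 epithelial markers summed to 1.33 and 1.16 fresh and 7.22 stored, with 8 of 8 detected each time, and 131 of 315 stored cells held at least 3 of them against 23 of 195 and 17 of 120. Without these cells Atf3 read 0.476, 0.520 and 1.02, a log2 change of 1.06 that missed the threshold (adjusted p = 0.0602). Dusp1 rose from 3.22 and 2.27 to 5.09 in fibroblast-like cells (log2 change 0.87, SE 0.20, adjusted p = 0.00913). Without the cells holding 3 epithelial markers it read 3.31, 2.38 and 5.50, a change of 0.97 (adjusted p = 0.108).

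Egr1 in macrophage-like cells went from 4.50 and 5.84 to 10.3 (log2 change 1.00, SE 0.20, adjusted p = 0.000135). Without cells holding 3 epithelial markers the levels were 4.51, 5.96 and 9.97, and a change of nearly the same size, 0.93, was not called (adjusted p = 0.804). The macrophage-like fit without these cells called 0 of 7932 genes in edgeR (380 at an unadjusted p under 0.05 for storage and 1999 for the platform), so the calls lost there are not particular to these genes. Fibroblast-like Egr1 moved the same way (7.26 and 4.24 to 9.63, log2 change 0.73) and missed the threshold (adjusted p = 0.0513).

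In T and NK-like cells Egr1 stood at 0.315 and 1.44 fresh and 3.13 stored (7, 18 and 76 UMIs), a log2 change of 2.09 (SE 0.37, adjusted p = 4.47e-06) that was 1.21 without fresh 10x 1 and 3.27 without fresh 10x 2. Fos stood at 2.48 and 7.02 fresh and 8.88 stored (1.03, SE 0.28, adjusted p = 0.0186), and Atf3 at 0.360 and 0.638 fresh and 1.44 stored (8, 8 and 35 UMIs, 1.67, SE 0.47, adjusted p = 0.0236). The 2 fresh Fos levels lay further apart than the higher of them lay from the stored one, and the change was 0.43 without fresh 10x 1 and 1.82 without fresh 10x 2. None of these 3 calls was kept without the cells that held epithelial RNA. Cells with at least 3 epithelial markers were 5 of 50, 2 of 23 and 16 of 54, and without them Fos read 2.47, 6.55 and 3.09, Egr1 0.346, 1.51 and 1.15, and Atf3 0.395, 0.588 and 0.706. The Fos change was then -0.45 (adjusted p = 0.818) and the Egr1 change 0.54 (adjusted p = 0.845), and Atf3 had too few UMIs to be tested. Across all classes, leaving these cells out took the storage calls from 6 to 0 of 49 pairs, with 8 pairs at an unadjusted p under 0.05 in edgeR. The share of all genes called fell too, to 1.06% in fibroblast-like and 0.278% in T and NK-like cells. Whether they are doublets or cells with free RNA was not tested.

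**Figure D3:**
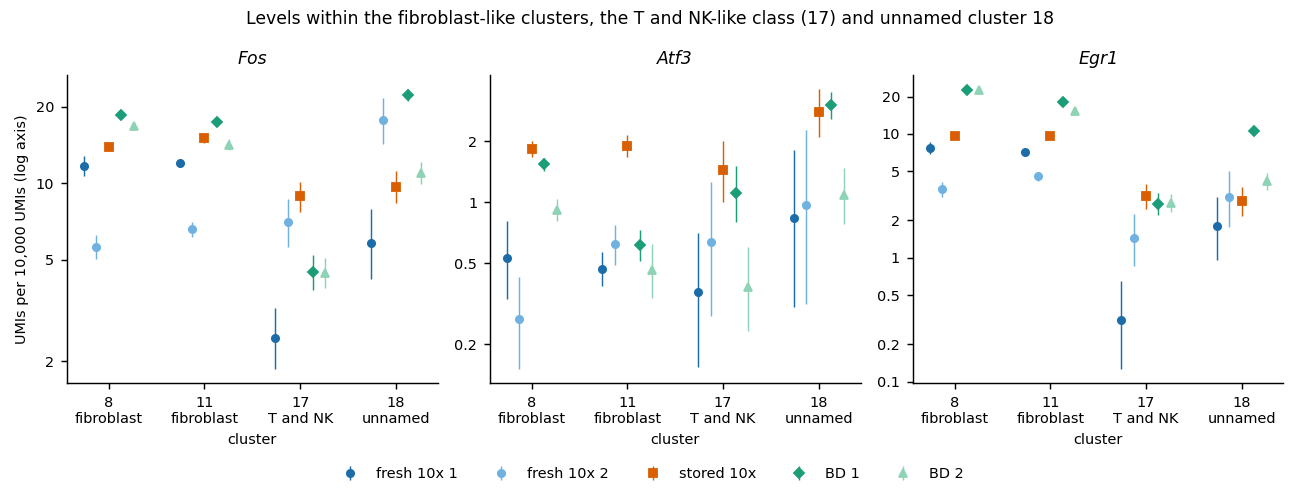
Fos, Atf3 and Egr1 in the 2 fibroblast-like clusters (8 and 11), in the T and NK-like class (cluster 17) and in the unnamed cluster 18, with UMIs per 10,000 UMIs on a log axis, 1 point per library and exact 95% Poisson intervals. Stored 10x lies above both fresh libraries for Atf3 in clusters 8 and 11 (1.83 and 1.89 against 0.265 to 0.621).

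The epithelial-like cells, which hold most of the members' UMIs, had no call, and their summed level was lower in the stored library. Stored 10x was below both fresh libraries for 5 of the 10 genes, between them for 4 and above both for 1 (over all genes tested in the class, 36.6% lay below both and 37.3% above both). The count below both is not far from the share of all genes. Fos stood at 39.3 and 40.4 fresh and 33.4 stored (log2 change -0.24, SE 0.17, adjusted p = 0.528). Within the 9 epithelial clusters the stored-to-fresh log2 ratio was negative in every cluster for Fos (-0.43 to -0.04), Fosb (-0.94 to -0.12), Jun (-0.51 to -0.20), Jund (-0.27 to -0.02) and Ier2 (-0.45 to -0.01), as a description with no test. Junb, Atf3, Egr1, Dusp1 and Btg2 had both signs, with Btg2 at 0.47 in cluster 1 and -0.47 in cluster 7. The clusters come from the same libraries, so they repeat the same comparison. The share of all genes negative in every cluster is not given. In fibroblast-like cells 7 of 10 genes lay above both fresh libraries (39.8% of all genes), in macrophage-like cells 3 (34.1%) and in T and NK-like cells 7 (32.4%).

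More members passed between platforms than after storage, and so did more of all tested genes in every class. Between BD 1 and the fresh 10x pair, 24 of 50 pairs passed, 12 higher and 12 lower in BD 1. Scaling by library size without TMM moved the median of all genes by 0.18 in epithelial-like, 0.14 in fibroblast-like, -0.09 in endothelial-like, 0.40 in macrophage-like and 0.43 in T and NK-like cells, and then 13 were higher and 7 lower. The members called were 7 in epithelial-like (46.5% of all genes passed), 6 in fibroblast-like (43.8%), 4 in endothelial-like (16.8%, with 8.69% higher and 8.07% lower), 4 in macrophage-like (27.1%) and 3 in T and NK-like cells (21.6%, with 8.14% higher). These counts are not far from the share of all genes in fibroblast-like, macrophage-like and T and NK-like cells. BD 1 is 1 library of its platform, so platform, tumour and handling cannot be told apart. The deposited gene lists also differed in length between libraries, with 42562 names in the longest and 32845 in the shortest. What this does to the levels was not tested.

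Egr1 was higher in BD 1 in all 5 classes. In macrophage-like cells it was 4.50 and 5.84 on fresh 10x and 23.1 in BD 1 (log2 change 1.76, SE 0.20, adjusted p = 2.18e-17), and BD 2 gave 26.5. In fibroblast-like cells it was 7.26 and 4.24 against 21.2 (1.74, SE 0.23, adjusted p = 1.61e-05) and 20.8 in BD 2. In epithelial-like cells the step was smaller, 9.32 and 8.68 against 14.5 (0.51, SE 0.15, adjusted p = 0.0152), and in endothelial-like cells 6.31 and 7.39 against 10.4 (0.70, adjusted p = 0.0191). The T and NK-like change of 1.42 (adjusted p = 0.00139) was 0.57 (adjusted p = 0.485) without the cells holding 3 epithelial markers, and 0.50 without fresh 10x 1. Jund was called higher in epithelial-like (0.59), fibroblast-like (1.15), endothelial-like (0.67) and macrophage-like cells (0.73). Without TMM the endothelial-like changes of Egr1 (0.61) and Jund (0.58) were not called, and epithelial-like Jund was not called with the stricter cell filter or the finer clustering (0.59 in both). For Jund and Egr1, both BD libraries lay above both fresh libraries in 5 of 5 classes. Over all genes tested in a class, 37.7% to 58.3% lay above both in BD 1 and 34.7% to 54.1% in BD 2. In fibroblast-like cells Jund read 10.1 and 7.36 on fresh 10x and 21.4 and 19.2 on BD Rhapsody.

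Ier2 was called lower in 4 classes and was the clearest drop: 11.1 and 12.3 against 6.07 in epithelial-like cells (log2 change -1.12, SE 0.15, adjusted p = 0.000159), with 5.48 in BD 2. In endothelial-like cells it was 9.42 and 10.7 against 3.51 (-1.43, adjusted p = 0.000890), in T and NK-like cells -1.27 (adjusted p = 0.000835) and in macrophage-like cells -0.68 (adjusted p = 0.0160). Without TMM the macrophage-like change was -0.28 and not called. The T and NK-like change was -0.64 at the finer clustering and -0.60 with cluster 18 added, and was called in neither. In fibroblast-like cells Ier2 was between the fresh libraries (5.51, 2.22 and 3.51 in BD 1). Junb was lower in epithelial-like (24.0 and 20.3 against 13.9, log2 change -0.85, adjusted p = 0.00292) and endothelial-like cells (26.9 and 25.5 against 13.8, -0.83, adjusted p = 0.00544), both BD libraries being below both fresh ones.

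Fos took opposite directions in epithelial-like and fibroblast-like cells. It was lower in BD 1 in epithelial-like cells (39.3 and 40.4 against 30.7, log2 change -0.55, SE 0.18, adjusted p = 0.0247) and in macrophage-like cells (-0.45, adjusted p = 0.0449). Without TMM these changes were -0.38 (adjusted p = 0.0571) and -0.05, and neither was called. It was higher in fibroblast-like cells (11.98 and 6.29 against 18.2, 0.85, SE 0.25, adjusted p = 0.0128). The whole libraries gave -0.52 (adjusted p = 0.0384), close to the epithelial-like value. In macrophage-like cells the Fos level in BD 1, 24.2, lay between the fresh levels of 22.2 and 27.9. Over 10 settings the macrophage-like change ran from -0.61 to -0.05, and the result was weaker in 7 of them. The fibroblast-like change was 1.38 without fresh 10x 1 and 0.45 without fresh 10x 2. Atf3 likewise fell in epithelial-like cells (-0.50, adjusted p = 0.0177, and -0.32 and not called without TMM) and rose in fibroblast-like cells (1.22, SE 0.17, adjusted p = 2.35e-05). The latter was 1.803 in cluster 8 and 0.14, not called, in cluster 11, which holds a larger share of the fresh fibroblast-like cells (163 of 195 and 82 of 120) than of BD 1 (108 of 334).

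Of the feedback genes, Dusp1 rose in fibroblast-like cells (3.22 and 2.27 against 6.41, log2 change 1.08, SE 0.20, adjusted p = 0.000384) and was not called elsewhere. Btg2 fell there (2.50 and 1.62 against 1.21, -0.91, adjusted p = 0.00376), and the change was -0.18 in cluster 8 and -0.89 in cluster 11. Jun was lower in epithelial-like cells alone (23.7 and 31.6 against 18.5, -0.76, adjusted p = 0.00912). Whole libraries gave 4 calls (41.4% of genes passed), Fos, Junb and Ier2 lower and Egr1 higher, and none of the fibroblast-like rises in Atf3 or Dusp1 appeared there (Atf3 -0.49, adjusted p = 0.0603; Dusp1 0.00, adjusted p = 0.997).

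**Figure D4:**
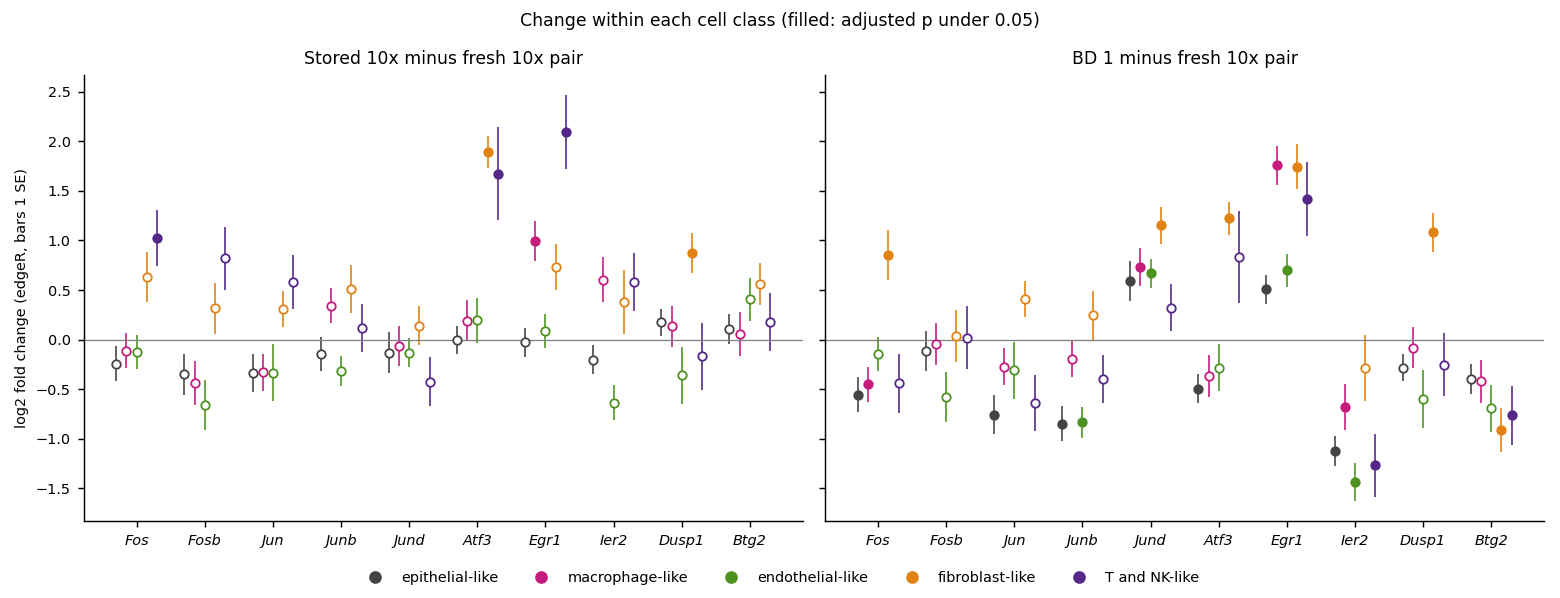
Change of the 10 genes (x axis) in 5 cell classes as log2 fold change, stored 10x minus the fresh 10x pair (left) and BD 1 minus the same pair (right). Bars are 1 SE and filled points have adjusted p under 0.05. Fibroblast-like points lie above epithelial-like ones for 9 of the genes on the right, and Btg2 is the exception (-0.91 against -0.40).

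The fibroblast-like platform change differed from the epithelial-like one by a test of the difference itself for 8 of 10 genes (6.72% of all genes passed). The differences were 1.95 for Atf3, 1.62 for Fos, 1.54 for Dusp1, 1.47 for Egr1, 1.38 for Junb, 1.33 for Jun, 1.12 for Ier2 and 0.80 for Jund. In this joint fit the median difference of all genes was 0.21 rather than 0, and -0.06 without TMM, where Jund (0.52) was no longer called. In macrophage-like cells Egr1 (1.55), Junb (0.99) and Jun (0.90) differed from epithelial-like cells (2.03% of genes passed). In endothelial-like cells and T and NK-like cells none did in edgeR (0.66% and 0.48% of genes). Leaving out cells with 3 epithelial markers kept 10 of these 11 calls, all but Jund (0.73, adjusted p = 0.0805).

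For storage, 10 differences from epithelial-like cells passed, 5 in T and NK-like cells (0.557% of all genes), 4 in fibroblast-like cells (4.55%) and 1 in macrophage-like cells (0.32%), with none in endothelial-like cells (0.762%). Without the cells holding 3 epithelial markers a single one was called, fibroblast-like Atf3 (1.10, adjusted p = 0.0303, from 2.00). Egr1 kept its size in fibroblast-like (0.88, adjusted p = 0.0575) and macrophage-like cells (1.07, adjusted p = 0.0788), while the T and NK-like differences for Fos and Jun turned to -0.19 and -0.17.

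Single cells were compared after thinning each to 2000 UMIs. The median cell then held 30, 31, 24, 26 and 23 UMIs of the 10 genes in epithelial-like cells and 18.5, 21, 28, 33 and 34 in macrophage-like cells. Fibroblast-like cells had 13, 8, 13, 18 and 19, and T and NK-like cells 12, 11, 8, 13.5 and 11. The median T and NK-like cell was thus lowest in the stored library, where the summed level was not. Shallower cells left out were 13 of 54 T and NK-like cells there, 3 of 50 and 1 of 23 in the fresh pair, and 73 of 2513 stored epithelial-like cells. The spread within a class was wide: in fresh 10x 1 the epithelial-like cells ran from 11 at the lowest decile to 64 at the highest, and the 10% of cells with most held 23.3% of the UMIs. Cells with no UMI of any of the 10 genes were at most 1.18% of epithelial-like cells in any library.

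**Figure D5:**
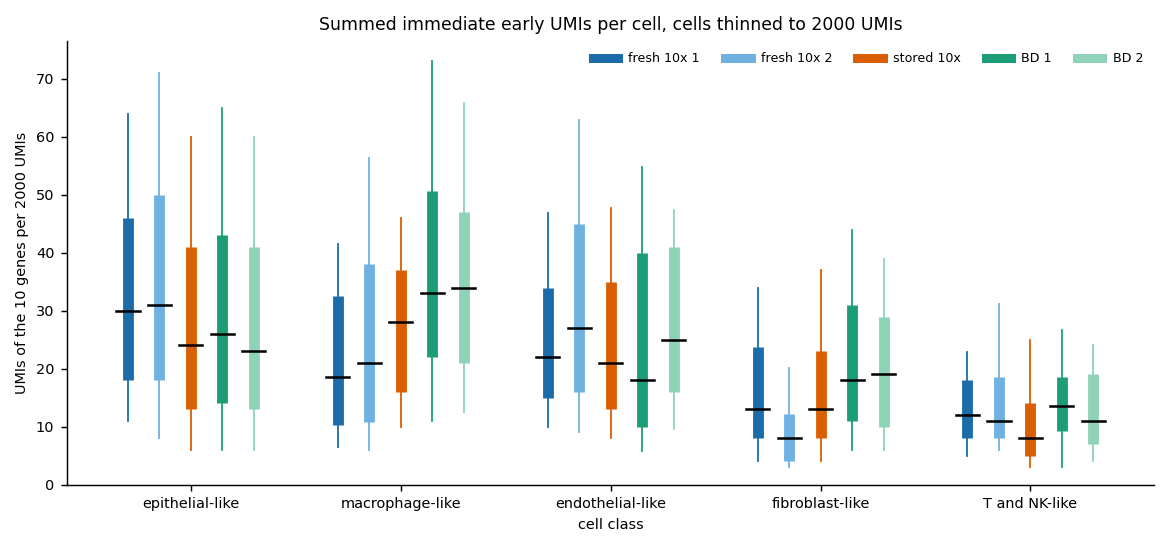
UMIs of the 10 genes per cell, for cells thinned to 2000 UMIs, by class and library. Thick bars span the quartiles, thin lines the lowest to highest decile and black marks the median, which is 23 to 31 in epithelial-like cells and 8 to 13.5 in T and NK-like cells.

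The mix of classes moved whole-library values by small amounts. Holding each class at the fresh 10x mix of UMIs moved the members' log2 ratio of BD 1 to fresh 10x by -0.12 to 0.09 and that of stored 10x by -0.02 to 0.05. The mix of clusters within a class was not held. Among epithelial-like cells, cluster 15 had 215, 45, 20, 9 and 5 cells, and cluster 9 had 16, 33, 183, 162 and 264. What such shifts do to the changes within a class was not tested.

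The wider early response was read from 111 further genes in 6 lists. Of all genes, storage called 2.05% higher and 0.786% lower in epithelial-like, 6.48% and 5.82% in fibroblast-like, 0.895% and 0.0726% in endothelial-like, 1.05% and 0.473% in macrophage-like, and 1.64% and 0.329% in T and NK-like cells. For BD 1 these shares were 23.2% and 23.3%, 21.2% and 22.5%, 8.69% and 8.07%, 11.4% and 15.7%, and 8.14% and 13.5%. Among other immediate early transcription factors, Nr4a1 (an orphan nuclear receptor) was higher in BD 1 in all 5 classes (1.37 to 2.72). Per1, a clock gene induced by CREB, was higher after storage in macrophage-like (1.93), fibroblast-like (1.24) and epithelial-like cells (0.96). In macrophage-like cells Per1 read only 0.245 and 0.133 fresh and 0.693 stored per 10,000, so its change rests on few UMIs. Storage called 3 higher and 4 lower of 22 in fibroblast-like cells (Nr4a1 1.32, Klf4 0.94 and Ier5l -1.23 among them), 3 and 1 of 21 in macrophage-like cells (Csrnp1 1.48, Nr4a1 1.27, and Klf2 -1.07, which was 0.22 without fresh 10x 2), 2 and 1 of 22 in epithelial-like cells (Klf10 0.63, Klf4 -0.60), and 1 of 20 in endothelial-like cells (Hes1 0.91). On BD 1 the counts, to be read against the shares just given, were 8 higher and 8 lower in epithelial-like, 10 and 8 in fibroblast-like, 2 and 6 in endothelial-like, 7 and 2 in macrophage-like, and 4 and 0 of 16 in T and NK-like cells.

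Of the feedback inhibitors and mRNA decay factors, storage called 9 higher and 1 lower of 30 in fibroblast-like cells, with Trib1 (1.37), Arrdc3 (1.09), Zfp36 (1.08) and Ier3 (0.98), against a median of 0.39 for the list and 0.00 for all genes. Without the cells holding 3 epithelial markers, 0 of the 28 tested passed in this class, with changes of 1.08 for Arrdc3, 0.91 for Trib1, 0.90 for Zfp36 and 0.38 for Ier3. The other immediate early factors also had 0 calls of 22 then, with Nr4a1 at 1.23 and Per1 at 1.06. Epithelial-like cells had Tnfaip3 higher (1.16) and Ppp1r15a lower (-0.60), and macrophage-like cells Nfkbia (0.93) and Dusp2 (0.89) higher and Txnip (-1.04) lower, the last at -0.19 without fresh 10x 2. Zfp36, which binds AU-rich elements of early mRNAs and speeds their decay, was higher in BD 1 in all 5 classes (1.42 to 2.79). In epithelial-like cells it read 9.52, 10.1, 9.04, 33.5 and 28.9 per 10,000, so both BD libraries stood above all 10x libraries. The list had 15 higher and 7 lower of 30 in epithelial-like, 14 and 2 in fibroblast-like, 8 and 5 of 29 in endothelial-like, 10 and 5 of 25 in macrophage-like and 7 and 2 of 24 in T and NK-like cells on BD 1. Of all genes, 23.2% were higher and 23.3% lower in epithelial-like and 21.2% and 22.5% in fibroblast-like cells.

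Of the secreted early genes, 4 of 12 were higher after storage in macrophage-like cells: Ptgs2 (2.18), Tnf (0.91), Il1b (0.75) and Cxcl2 (0.71), an enzyme and cytokines of inflammation. The Il1b change was 1.55 without fresh 10x 1 and 0.19 without fresh 10x 2. In fibroblast-like cells 5 were higher and 6 lower of 17, led by Cxcl2 (3.47), Tnf (3.03), Thbs1 (-1.81) and Edn1 (1.39). Tnf there read only 0.00764 and 0.00519 fresh and 0.0568 stored per 10,000, so its change rests on very few UMIs. Cxcl2 there read 0.0267, 0.0571 and 0.449 per 10,000, from 7, 11 and 174 UMIs. Without the cells holding 3 epithelial markers its change was 1.26 (adjusted p = 0.255), and 1 gene was higher and 2 lower of 15. The Edn1 change was 0.68 without fresh 10x 1 and 2.36 without fresh 10x 2. Tnf (0.84) was higher and Hbegf (-0.77) lower in epithelial-like cells. In T and NK-like cells the storage calls outside the 10 genes were Ier3 (4.203), Sox4 (3.77), Cyr61 (3.60), Zfp36 (1.34) and Hspa1a (-1.71), in a class whose epithelial marker sum rose as given above. Without the cells holding 3 epithelial markers none of these passed, and Zfp36 was -0.53. On BD 1, Plau, a protease of the plasminogen system, was among the leading genes of this list in 4 classes (2.06 to 3.13).

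The heat shock genes called after storage were all lower. Hspa1a was lower in T and NK-like (-1.71), epithelial-like (-1.48), macrophage-like (-0.83) and fibroblast-like cells (-0.78), and Dnaja1 in macrophage-like cells (-1.12), among 12 tested genes in each class. In macrophage-like cells Hspa1a was 4.10 and 16.5 fresh and 5.88 stored, so the stored library lay between the fresh ones, and the change was 0.51 without fresh 10x 2. In fibroblast-like cells the Hspa1a change was -0.77 and not called without the cells holding 3 epithelial markers. The epithelial-like change was not called without TMM (-1.498, adjusted p = 0.0691). In epithelial-like cells Hspa1a read 3.01 and 5.61 fresh, 1.53 stored and 1.63 and 1.29 on BD Rhapsody, so both fresh 10x libraries stood above the rest. Of other AP-1 and bZIP subunits, Cebpd was higher after storage in fibroblast-like cells (0.84), and BD 1 had Fosl2 higher in epithelial-like (1.404), fibroblast-like (0.82) and T and NK-like cells (2.09). Of 17 upstream kinases and factors, Hras (-2.93 to -2.04) and Map2k2 (-1.95 to -1.52) were lower in BD 1 in all 5 classes, and Mapk3 (0.58) and Rps6ka3 (0.64) were higher after storage in fibroblast-like cells.

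Over the 25 sums of 5 classes in 5 libraries, the members followed each other unevenly. The correlation of a member with the mean of the other 9, on standardised log2 CPM, was 0.91 for Atf3, 0.90 for Fos and 0.84 for Fosb, and 0.47 for Dusp1, 0.46 for Junb and 0.13 for Jund. The genes outside all lists most like the mean of the 10 were Mtss1 (r = 0.86), Zfand5 (0.83), Gpx1 (0.83), F11r (0.83) and Sat1 (0.82), of 3147 compared. The points share libraries and classes, so these are descriptions of 25 sums and carry no p-value.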

How the data were processed

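Single-cell UMI counts of 5 libraries of mouse mammary tumours were used as deposited by the authors, as raw counts per gene and cell for selected cells. Per the submitters' processing notes, Cell Ranger 3.0.1 and mm10 were used, and which step applies to the BD Rhapsody libraries is not given in the sources used here. Cells with at least 200 genes and no doublet call (15598 of 15958) were clustered with scanpy 1.11.5 (2000 variable genes, 30 components, 15 neighbours, Leiden resolution 1.0) without the members and the other listed genes. Scrublet's doublet calls were used in fresh 10x 1 alone (21 cells, 1.03%), since under 0.5% were marked in the other libraries, where doublets remain. Clusters were named from fixed markers; clusters 4, 6, 16, 18, 21 and 24 stayed unnamed. Counts were summed per library and class where every library had at least 10 cells, and genes needed at least 10 UMIs in at least 2 libraries. The main test was edgeR 4.0.16's quasi-likelihood test (R 4.3.3) with TMM scaling and Benjamini-Hochberg adjustment over all tested genes at 0.05, with 1 residual degree of freedom per class; DESeq2 1.42.0 was an alternative, and the test was checked on simulated data. Levels between classes and states were fitted with library as a block. For listed genes, up to 4 past the threshold with the largest change per list and class are named; after their values were seen, genes that recur in several classes (Zfp36, Nr4a1, Hras, Map2k2, Plau, Fosl2) were singled out. Members, lists and tests were chosen with earlier results of these data known. Intervals cover counting error only. Alternatives were another scaling, no low-count filter, a stricter cell filter, finer clusters, leaving out each fresh library, and, chosen after seeing the data, single clusters, cluster 18 added, and cells of other classes with at least 3 of 8 epithelial markers left out. A result among the listed genes is not reported here.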

Additional observations from a re-analysis of the deposited data

Results flagged for a closer look

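These results stand here because a change in 1 class differed from the change in epithelial-like cells by the test of that difference in the joint edgeR fit, which rests on the single stored and the single BD 1 library. All values are log2 differences.

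For storage in fibroblast-like cells the differences were 2.00 for Atf3 (adjusted p = 1.44e-08), 0.97 for Fos, 0.87 for Egr1 and 0.82 for Junb (adjusted p = 0.00870 to 0.0489 for the last 3). In macrophage-like cells it was 1.12 for Egr1 (adjusted p = 0.0390). In T and NK-like cells the differences were 2.33 for Egr1 (adjusted p = 1.65e-06), 1.83 for Atf3, 1.496 for Fos, 1.35 for Fosb and 1.09 for Jun. Epithelial markers rose in stored T and NK-like cells from 2.70 and 2.63 to 10.7 per 10,000 and in stored fibroblast-like cells from 1.33 and 1.16 to 7.22. The median difference over all genes was 0.11 in both classes.

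For the platform in fibroblast-like cells the differences were 1.95 for Atf3 (adjusted p = 3.52e-08), 1.62 for Fos (adjusted p = 1.20e-07), 1.54 for Dusp1, 1.47 for Egr1, 1.38 for Junb, 1.33 for Jun, 1.12 for Ier2 and 0.80 for Jund. In macrophage-like cells they were 1.55 for Egr1 (adjusted p = 2.28e-05), 0.99 for Junb and 0.90 for Jun. The median over all genes was 0.21 in fibroblast-like and 0.19 in macrophage-like cells. With cluster 18 counted as T and NK-like cells, Atf3, Egr1, Fos, Fosb and Jun also differed there, by 2.24, 1.95, 1.65, 1.505 and 1.12. Levels in that combined class lay nearer the fresh mean in BD 2 than in BD 1 for these genes. Fos had a fresh mean of 6.71, with 15.2 in BD 1 and 7.27 in BD 2. Atf3 had 0.606, 2.25 and 0.689, Fosb 3.19, 8.96 and 3.83, and Jun 8.63, 12.1 and 6.21. For Egr1 they were 1.30, 7.46 and 3.36. These calls are not set against the share of all genes passing in the same fit.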

How the results depend on the processing

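The storage calls were the least stable: 6 of 50 pairs became 10 with no filter on low counts, 9 without TMM, 7 with the stricter cell filter, 4 at the finer clustering, 1 with DESeq2 and 0 when cells of other classes with at least 3 epithelial markers were left out; in macrophage-like cells no gene of 7932 was called then (380 at an unadjusted p under 0.05 in edgeR). Leaving those cells out turned T and NK-like Fos to -0.45, and its storage difference from epithelial-like cells to -0.19 and that of Jun to -0.17. The 10 storage differences became 5 without TMM, 4 with the stricter cell filter (at least 500 UMIs and at most 20% mitochondrial), 6 with cluster 18 added to the T and NK-like class and 1 without the cells with epithelial markers. The 24 platform calls became 11 with DESeq2 and 18 to 27 under the other alternatives that kept all classes and both fresh libraries. The 11 platform differences became 7 with the stricter cell filter. T and NK-like Btg2 turned from -0.76 to 0.057 at the finer clustering and to 0.048 with cluster 18 added; the cause was not tested. The level calls (25) ranged from 23 to 32 and the state calls (66) from 65 to 67. Apart from the macrophage-like fit named here, these counts are not set against the share of all genes passing in each alternative. A change in them may thus not be particular to the members.

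Leaving out fresh 10x 1 or fresh 10x 2 gave storage changes of 1.21 and 3.27 for T and NK-like Egr1, and 1.13 and 0.64 for fibroblast-like Dusp1. Platform changes became 2.17 and 1.403 for fibroblast-like Egr1, 1.35 and 0.85 for Dusp1 and -0.57 and -1.19 for Btg2 there, and 0.86 and 0.37 for epithelial-like Jund. Replicate numbers could pair libraries only with the BD libraries grouped by their titles: that fit gave 26 platform calls, and 27 with the replicate number as a block. Precision is limited by 7 to 137 UMIs per library for Egr1 and 8 to 41 for Atf3 in T and NK-like cells, by 1 stored library and by 1 usable BD library.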

Other observations

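The unnamed cluster 18, with T cell and immunoglobulin genes and 41, 18, 67, 55 and 69 cells, had Fos levels of 5.84, 17.7, 9.68, 22.3 and 10.97 per 10,000, above the T and NK-like class in every library. Its Egr1 levels were 1.81, 3.11, 2.89, 10.6 and 4.14. Mural-like cells, too few in BD 2 to be tested, had Fos at 20.0, 10.9, 19.4, 36.7 and 33.9, so both BD libraries stood above the 10x libraries, as in fibroblast-like cells.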
